A study of Mus musculus with 24 samples.

Results

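Advillin and 8 keratins were followed in mouse fibroblasts that grew for 24 h below metal powder. The genes were Krt7, Krt8, Krt14, Krt16, Krt17, Krt18, Krt19, Krt20 and Avil, and every probe carrying one of these symbols was taken from the deposited intensity tables, giving 9 probes, 1 for each gene. They were 9 of 30774 gene symbols on the array, and 5 of the 9 (Krt7, Krt8, Krt14, Krt16 and Avil) were among the 13392 genes bright enough to be tested. The set was selected on measured values: Krt16 and Avil were among the largest rises under manganese and alloy on these same arrays. Their values under those powders are therefore given as a description, with no test, and the same holds for every gene of the set in manganese against control and in alloy against control.

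The cells were BALB/3T3 clone A31, an established line of embryonic fibroblasts from BALB/c mice, and all 4 groups came from that 1 clone. Control cells were cultured without metal, and the other groups received powder in a tissue culture insert above the monolayer: pure iron at 3,25 mg/ml (the labels' decimal comma), pure manganese at 0.5 mg/ml, or an iron-manganese alloy named Fe-35Mn at 5 mg/ml. Each group had 6 bead arrays, 24 in all, and the sample titles call them technical replicates, and nothing in the labels ties them to separate cultures. The p-values below therefore reflect array-to-array scatter that may be purely technical. Since the RNA came from whole cultures, fewer cells that express a gene and less of its RNA per cell cannot be told apart.

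Keratins are the intermediate filament proteins of epithelial cells, and a filament is built from pairs of 1 type I and 1 type II chain. Krt8 (type II) pairs with Krt18 (type I) in simple epithelia, Krt14 is the type I keratin of the basal epidermal layer, and Krt16 and Krt17 are type I keratins of wounded and stressed epidermis. Fibroblasts build their filaments mainly from vimentin. Advillin is an actin-binding protein of the gelsolin and villin family, known from sensory neurons and tuft cells.

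The 24 arrays carried RNA of fibroblast character. Of 16 fibroblast markers, 14 were above background on all 24 arrays, and the 2 others, Fap and Lum, were above it on none. Summed fibroblast marker intensity was 58123 to 69964 in control, 59302 to 70963 under iron, 42186 to 43695 under manganese and 29320 to 45853 under alloy. Median probe intensity was 61.6 to 75.3 over the arrays and the background limit 71.7 to 86.5, both lowest in alloy replicate 4. Every manganese and alloy array had fewer probes above background (36.9% to 41.1%) than every control and iron array (41.3% to 43.4%). The alloy arrays were the least alike: the median SD of a gene over 6 arrays was 0.146 on the log2 scale, against 0.0762 in control, 0.0767 under iron and 0.0835 under manganese. On the first principal component, which held 75.7% of the variance, alloy replicates 1, 3 and 4 scored 39.4, 48.6 and 27.4. The other alloy arrays scored 9.50 to 19.0, and the manganese arrays 22.3 to 26.8. Alloy results of the set are therefore also given without replicates 1, 3 and 4, as are the counts of the other gene lists. The same is done for a further named gene that passed under alloy, where that call was lost or its value moved by over 1.5 times. Named genes that did not pass under alloy may have moved as well. The fit across all genes shares 1 spread estimate between groups, which is smaller than that of the alloy arrays.

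Promoter sequences are shown for the 2 genes that stood highest among those with an entry in the RefSeq promoter table (build GRCm38.p6), which held 6 of the 9 genes (Krt7, Krt8, Krt14, Krt18, Krt20 and Avil). Each is the 250 bases before an annotated start site, 5′ to 3′ on the gene's own strand, with capitals on every match to 9 short motifs searched on both strands. Both printed windows lie inside the gene spans of the same RefSeq build, downstream of the outermost start, so they precede an internal annotated start site and not the 5′ end of the gene. The Avil window lies at chr10:127000459-127000708 on the plus strand and the Krt14 window at chr11:100206031-100206280 on the minus strand.
Avil: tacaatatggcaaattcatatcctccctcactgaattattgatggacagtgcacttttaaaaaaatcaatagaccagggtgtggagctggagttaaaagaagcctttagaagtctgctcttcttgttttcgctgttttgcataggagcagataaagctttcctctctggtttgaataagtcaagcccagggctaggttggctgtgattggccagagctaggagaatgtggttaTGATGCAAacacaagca
Krt14: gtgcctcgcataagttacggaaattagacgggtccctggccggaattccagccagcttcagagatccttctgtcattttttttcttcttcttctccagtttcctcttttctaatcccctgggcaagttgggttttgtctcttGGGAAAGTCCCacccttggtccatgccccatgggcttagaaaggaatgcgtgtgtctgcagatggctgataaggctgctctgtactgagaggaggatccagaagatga
The capitals in Avil mark the pattern TGATGNAA, the composite element that ATF4 and its partners are known to bind, at positions -17 to -10 from the start site. Of 32851 mouse promoter windows of this length, 3.45% held that pattern. The capitals in Krt14 mark the NF-kB pattern (GGG, then 5 bases of any kind, then CC), which matched on the plus strand at -108 to -99 and again, overlapping, on the minus strand at -107 to -98, and which 45.8% of promoters held. The other 7 motifs were AP-1 TGANTCA, CRE TGACGTCA, the antioxidant response element core TGACNNNGC, the interferon element (GAAA, 2 bases of any kind, GAAA), the STAT site TTCNNNGAA, the hypoxia element ACGTG and the TATA box TATAAA, with shares of 6.75%, 1.55%, 10.2%, 2.98%, 7.02%, 16.6% and 12.4% of all windows, and none of these letters occurred in either window. The same NF-kB pattern stood in the Krt7, Krt8 and Krt18 windows as well, while Krt20 held a TATA box and the antioxidant core. A match describes letters only, and no binding was measured here.

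Krt16 and Avil were close to background in untreated cells and bright under both manganese-bearing powders. Probe intensity of Krt16 ran from 74.2 to 88.5 in control with a median of 78.5, and from 74.0 to 86.8 under iron with a median of 83.2. It ran from 580 to 851 under manganese with a median of 717, and from 379 to 2760 under alloy with a median of 736. The probe was above background on 2 of 6 control arrays, 4 of 6 iron arrays and all 12 arrays with manganese or alloy. Every manganese and alloy array thus lay above every control and iron array, while control and iron overlapped and manganese and alloy overlapped.

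Avil showed the same order of groups. Its intensity ran from 71.6 to 85.3 in control with a median of 79.9, and from 75.1 to 88.6 under iron with a median of 86.2. It ran from 1065 to 1471 under manganese with a median of 1164, and from 530.5 to 4004 under alloy with a median of 1189. Avil was above background on 2 of 6 control arrays and 5 of 6 iron arrays, and on all 6 arrays of both other groups. Manganese and alloy did not overlap control or iron.

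**Figure D1:**
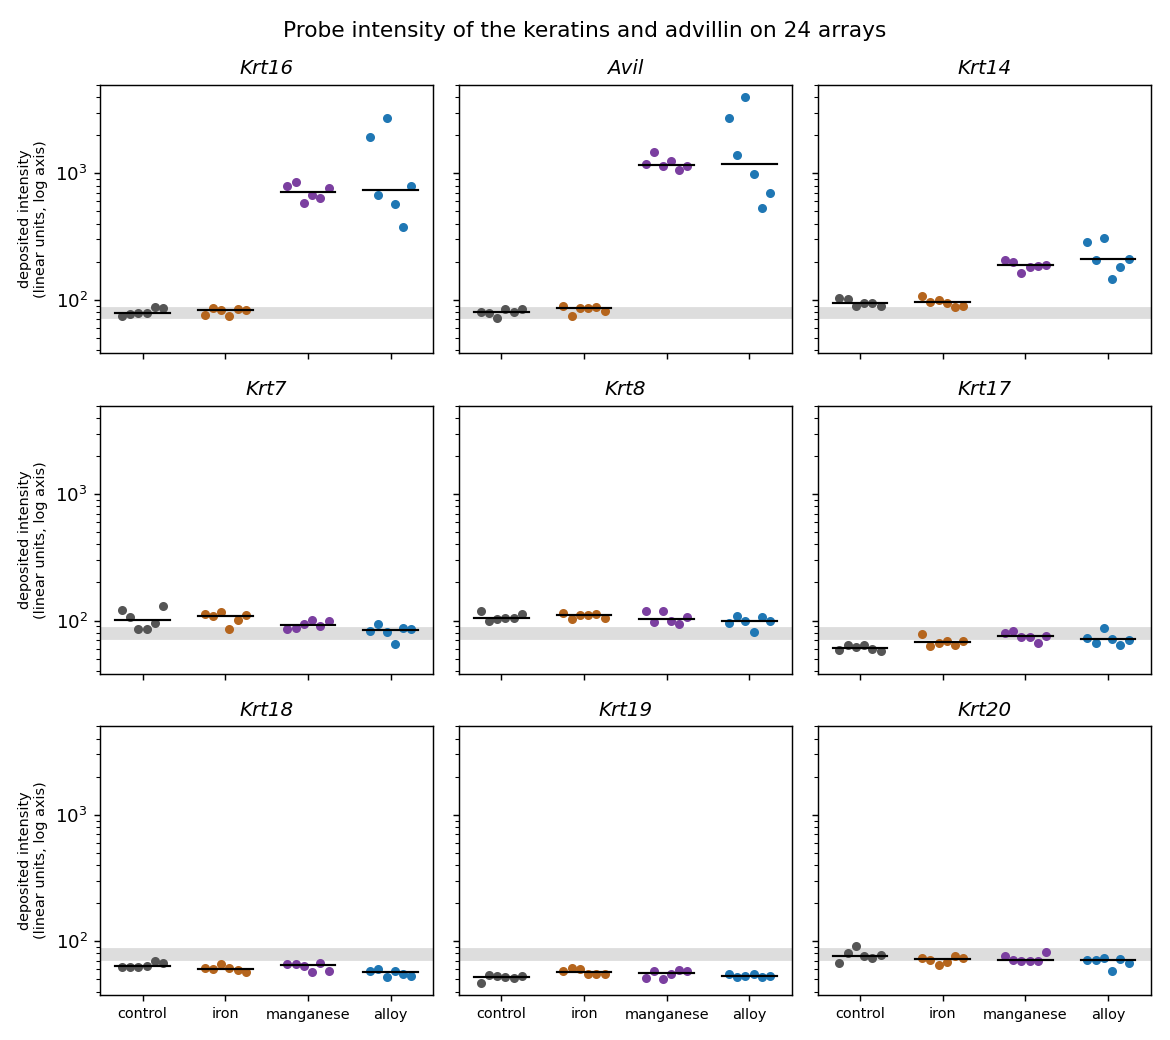
Deposited probe intensity (linear units on a log axis) of the 9 genes on 24 arrays, with 1 point per array, a line at the median of 6 and a grey band from 71.7 to 86.5, the range of the arrays' background limits. Krt16, Avil and Krt14 stand higher under manganese and alloy than in control or under iron, and Krt18 and Krt19 lie below the band on all arrays.

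On the log2 scale, after background correction with an offset of 50 and quantile normalisation, Krt16 was higher than in control by 3.06 under manganese and by 3.56 under alloy (SE 0.275 each), or 8.31-fold and 11.8-fold. Avil was higher by 3.81 and 4.08 (SE 0.285 each), or 14.0-fold and 17.0-fold. Ordered by their rise over control among the 13392 genes, Avil stood at place 3 under manganese and place 1 under alloy, and Krt16 at place 16 and place 6. The offset compresses changes of dim probes: with an offset of 16, Avil differed by 4.503 under manganese and 4.78 under alloy, and Krt16 by 3.72 and 4.22. The authors' normalized probe values gave smaller differences in the same direction, 1.36 and 1.64 for Avil and 0.89 and 1.27 for Krt16.

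Iron powder alone gave no detectable change in either gene. Krt16 differed from control by 0.04 (SE 0.275, adjusted p = 0.999) and Avil by 0.08 (SE 0.285, adjusted p = 0.996) with limma and Benjamini-Hochberg adjustment. Of all genes tested, 0.239% passed in this comparison. None of the 5 tested genes of the set passed, and each overlapped control under iron, where 2.10% of all genes did not overlap. The SE of Krt16 and Avil comes from a spread shared with the alloy arrays. With only control and iron arrays in the fit, adjusted p for Avil was 0.323 and for Krt16 0.766.

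Krt14 was the third gene of the set that stood higher under manganese and alloy. Its intensity ran from 89.0 to 103 in control (median 94.4) and from 87.7 to 108 under iron (median 95.6), against 164 to 208 under manganese (median 187) and 147 to 307 under alloy (median 209). The probe was above background on all 24 arrays, only slightly so in control and under iron. All 12 manganese and alloy arrays lay above all 12 control and iron arrays.

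The iron arrays took no part in the choice of Krt16 and Avil, but the manganese and alloy arrays did. Iron also lay close to control in Krt14, so tests against iron are not independent of that choice. Against iron, Krt14 rose by 0.97 under manganese (SE 0.102, adjusted p = 9.52e-09), or 1.96-fold. It rose by 1.27 under alloy (SE 0.102, adjusted p = 7.05e-11), or 2.41-fold, in 6 of 6 arrays both times. In these comparisons 26.0% and 26.8% of all genes passed as higher, 21.0% and 15.5% did not overlap as higher, and both comparisons use the same 6 iron arrays. Both calls held under each alternative processing and without any 1 array, with adjusted p up to 3.16e-05 and 2.30e-06. Against control, Krt14 was higher by 1.00 under manganese and 1.30 under alloy (SE 0.102 each), and under iron by 0.03 (adjusted p = 0.997). The authors' normalized probe values put it 0.18 and 0.26 above control.

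**Figure D2:**
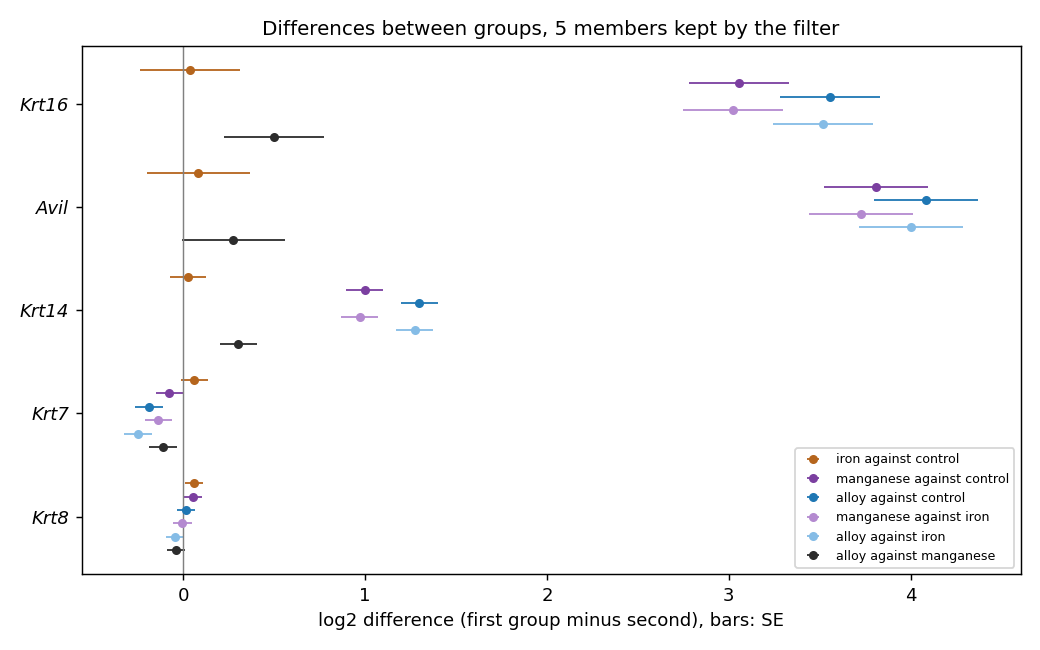
Log2 difference between groups (x axis) for the 5 tested genes (y axis) in the 6 comparisons, with bars for SE. Krt16, Avil and Krt14 lie to the right of 0 in the 4 comparisons of manganese or alloy with control or iron, and Krt7 and Krt8 lie within 0.25 of 0 in all 6.

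Alloy and manganese, given at different doses, were less far apart than either was from control. Krt14 was 0.30 higher under alloy (SE 0.102, adjusted p = 0.0458), with 4 of 6 alloy arrays above all manganese arrays, in a comparison where 6.25% of all genes passed as higher. That call was lost without alloy replicates 1, 3 and 4, where the difference was 0.06 (adjusted p = 0.615), and in 19 of the 24 fits that left out 1 array. Krt16 was 0.50 higher under alloy than under manganese (SE 0.275) and Avil 0.28 higher (SE 0.285). Without alloy replicates 1, 3 and 4 the differences were -0.26 and -0.58 on the log2 scale. Those were the alloy arrays with the most normalised Krt16 and Avil, so a lower alloy mean without them was fixed in advance.

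The spread of these genes within the alloy group was wide. Krt16 intensity was 1931, 674, 2760, 570, 379 and 797 in alloy replicates 1 to 6. Avil intensity was 2717, 1388, 4004, 990, 530.5 and 696 in the same order, and Krt14 intensity 287, 207, 307, 147, 181 and 211. Replicates 1 and 3 were the brightest for all 3 genes, and replicate 5 was the dimmest for Krt16 and Avil. After normalisation, replicate 4, the dimmest array with a median probe intensity of 61.6, joined replicates 1 and 3 at the top for Krt16 and Avil. SD over the 6 alloy arrays was 1.04 for Krt16, 1.09 for Avil and 0.350 for Krt14 on the log2 scale, against 0.195, 0.141 and 0.107 under manganese. Mean difference from control was 4.32 for Krt16, 4.94 for Avil and 1.54 for Krt14 over replicates 1, 3 and 4, and 2.79, 3.23 and 1.06 over replicates 2, 5 and 6. The arrays with the highest scores on the first principal component were thus also those with the most Krt16 and Avil, and the part of that array difference in these values was not tested. Krt7 and Krt8 showed no such rise. On the same 6 alloy arrays Krt7 lay -0.32 to -0.09 from the control mean, lowest on replicates 4 and 3 (-0.32 and -0.23), and Krt8 -0.02 to 0.05.

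**Figure D3:**
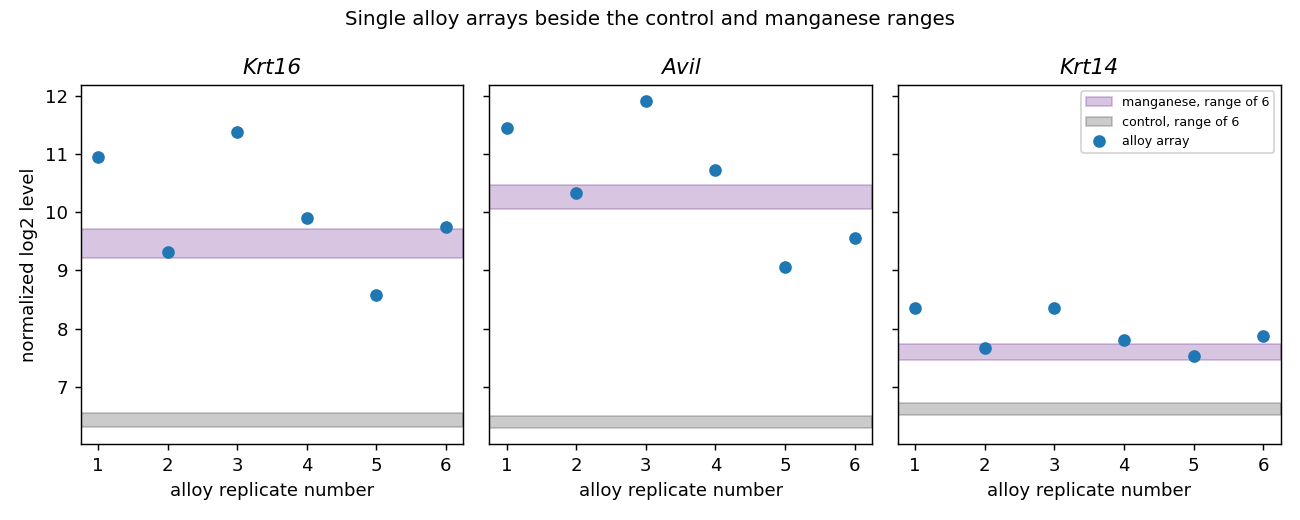
Normalised log2 level (y axis) of Krt16, Avil and Krt14 in each of the 6 alloy arrays (x axis, replicate number), with bands for the range of the 6 manganese and the 6 control arrays. Replicates 1 and 3 lie above the manganese band for all 3 genes, replicate 5 lies below it for Krt16 and Avil, and every alloy array lies above the control band.

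Krt7, a type II keratin of simple and glandular epithelia, was dim in all groups and lowest in the mean under alloy. Its intensity ran from 85.5 to 130 in control (median 101), 86.2 to 116.2 under iron (median 108.98), 85.1 to 101 under manganese (median 92.2) and 64.8 to 93.3 under alloy (median 83.9). It was above background on all control and iron arrays and on 5 of 6 arrays of both other groups, and all groups overlapped. Against iron it fell by 0.25 on the log2 scale under alloy (SE 0.0752, adjusted p = 0.00624), with 3 of 6 alloy arrays below all iron arrays, in a comparison where 29.4% of all genes passed as lower. Without alloy replicates 1, 3 and 4 that difference was -0.20 and no longer passed (adjusted p = 0.0644). The difference under manganese against iron was -0.14 (adjusted p = 0.131), under alloy against manganese -0.11 (adjusted p = 0.334), and under iron against control 0.06 (adjusted p = 0.946). Against control it was -0.08 under manganese and -0.19 under alloy.

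Krt8 kept a similar low level in the 4 groups. Its intensity ran from 98.8 to 118.1 in control (median 105), 103 to 114.3 under iron (median 110.8), 93.9 to 118.6 under manganese (median 104) and 80.7 to 109.05 under alloy (median 98.7), above background on all 24 arrays. None of the Krt8 comparisons tested passed. The difference was 0.06 for iron against control (SE 0.0499, adjusted p = 0.873) and -0.01 for manganese against iron (adjusted p = 0.941). It was -0.05 for alloy against iron (adjusted p = 0.466) and -0.04 for alloy against manganese (adjusted p = 0.638). A second probe, which the array names by an older Krt8 symbol, was above background on none of the 24 arrays.

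In manganese against control, 3 of the 5 tested genes (Krt14, Krt16 and Avil) lay higher with no overlap, as did 20.7% of all genes. In alloy against control only the same 3 lay higher with no overlap, as did 15.3% of all genes. Nothing is read from these counts, since both comparisons served to choose the set.

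The other 4 keratins stayed at or below the background limit nearly everywhere, and none was tested. Krt18, the partner of Krt8, had intensities of 52.3 to 69.4 and Krt19, a small type I keratin of simple epithelia, of 47.0 to 61.5 over the 24 arrays, above background on none. All 6 iron arrays lay above all control arrays in Krt19 level, by 0.15 in the mean and below background in both groups. Krt20, a type I keratin of the intestine, ran from 57.8 to 92.1 and was above background on 1 control and 1 manganese array. Krt17 was above background on 2 alloy arrays only. Its median intensity was 60.5 in control, 67.6 under iron, 74.8 under manganese and 70.9 under alloy. All 18 arrays with metal lay above all control arrays in normalised Krt17 level. In deposited intensity iron overlapped control, with iron replicate 2 at 63.21 and control replicate 2 at 63.66. The measured means of 6.24, 6.37 and 6.38 against 6.07 in control lay under the background floor, so no fold is given. Of all tested genes, 2.10% did not overlap control under iron in either direction, 20.7% as higher under manganese and 15.3% under alloy.

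A rise of the size of that in Krt14 was not seen in the further keratin probes, most of which were near or below background in every group. Another 61 keratin probes covered 44 further keratin genes, and 44 of those probes were above background on no array, 7 on 1 to 5 arrays and 10 on at least 6. Of the 9 further keratin genes tested, none passed as higher and 1 as lower under manganese. Under alloy 1 passed in each direction, with or without replicates 1, 3 and 4. Over all genes, 26.1% passed as higher and 28.2% as lower under manganese, and 26.8% and 29.2% under alloy. The median difference was 0.02 and -0.00, beside -0.00 and -0.01 over all genes. Krt10 apart, the tested genes had control mean intensities of 80.2 to 102, near the background limits of 71.7 to 86.5. Under iron none of the 9 passed (median 0.05 against 0.00). Krt10, a type I keratin of the upper epidermis and the brightest of them, fell from a mean intensity of 456 in control to 333 under manganese (-0.34 on the log2 scale, SE 0.0693, adjusted p = 0.000142) and 299 under alloy (-0.42, adjusted p = 1.14e-05). Krt33a, a hair keratin near background, passed under alloy at 0.12 (adjusted p = 0.0212), and did not pass with median scaling, with no normalisation or with only the 2 groups in the fit. Krt222 lay at -0.09 and -0.06 and Krt80 at 0.09 and 0.00, and neither passed.

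In the RefSeq gene order on chromosome 11, Krt9, Krt14, Krt16, Krt17 and Krt42 follow one another. Krt14 and Krt16 were bright under manganese and alloy, while Krt9 and the 3 probes of Krt42 were above background on no array, and Krt17 on 2 alloy arrays. Krt14, Krt16, Krt17 and Krt42 are close relatives, and how far their probes bind each other's RNA was not tested here.

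**Figure D4:**
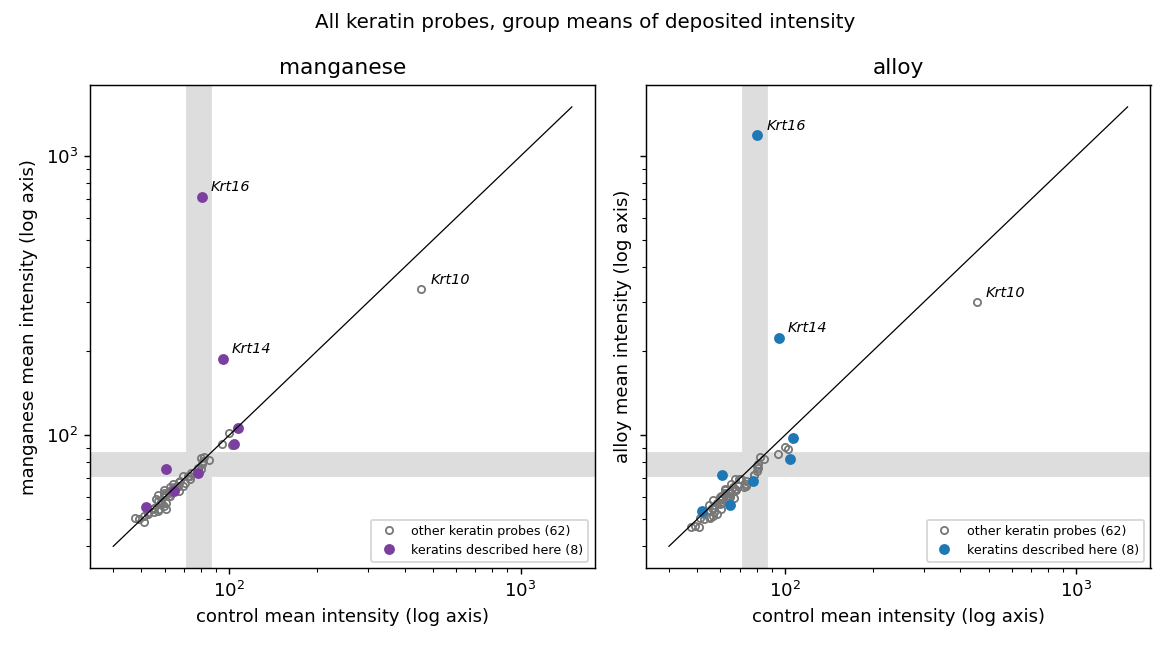
Mean deposited intensity of 6 arrays for all 70 keratin probes, control on the x axis and manganese or alloy on the y axis, both on log axes, with the line of equality and grey bands for the background limits. Krt16 and Krt14 lie well above the line in both panels, Krt10 lies below it, and most other probes (open circles, the second Krt8 probe among them) lie near the line at or below background.

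Most markers of other cell types were at background, and 5 of them passed as higher under manganese or alloy. Over all tested genes, 26.1% passed as higher under manganese and 26.8% under alloy, so nothing is read from that count. Of 23 epithelial markers, 13 were above background on no array, among them Epcam, Cldn3, Esrp1, Grhl2 and Ovol1, and the summed intensity was 1839 to 1981 in control, 1828 to 1954 under iron, 1623 to 1713 under manganese and 1438 to 1674 under alloy. Without Trp63, which fell and belongs to the epithelial and keratinocyte lists alike, the epithelial sum was 1546 to 1617 in control, 1527 to 1632 under iron, 1550.5 to 1638 under manganese and 1378 to 1599 under alloy. Esrp2, an epithelial splicing factor, rose by 0.17 under manganese (adjusted p = 0.0115), from 4 to 6 of 6 arrays above background, and differed by 0.10 under alloy (adjusted p = 0.118). Spint1, of the same list, passed as lower, at -0.22 under both powders, from 6 of 6 control and 6 of 6 iron arrays above background to 1 of 6 under each. The 10 keratinocyte markers summed to 1532 to 1711 in control, 1542 to 1687 under iron, 1353 to 1456 under manganese and 873 to 1387 under alloy, with Dsg3, Lor and Ivl above background on no array and Krt5 on 1 iron array. Without Trp63 and Krt10, left out because both fell, the sum of the other 8 was 957 to 1029 under manganese and 779 to 882 in control. It was 812 to 900 under iron and 629 to 922 under alloy. Of these 8, only Col17a1 and Itgb4 were bright enough to be tested. Their mean intensities were 137 and 290 in control, and 229 and 359 under manganese. Col17a1, a collagen of the hemidesmosome, rose by 0.80 on the log2 scale under manganese (adjusted p = 1.5e-10) and by 0.59 under alloy (adjusted p = 3.46e-08), and Itgb4, the integrin subunit of the same structure, rose by 0.40 under manganese (adjusted p = 5.06e-05) and differed by 0.07 under alloy (adjusted p = 0.456), where it passed at 0.20 without replicates 1, 3 and 4 (adjusted p = 0.0233). For Avil, 6 of 9 sensory neuron markers were above background on no array, Ret, Trpv1 and Isl1 among them, with sums of 629 to 674 in control, 610.3 to 678 under iron, 599 to 628 under manganese and 525 to 631 under alloy. Of 6 tuft cell markers, Pou2f3 and Ltc4s were above background on no array, and the sums were 765 to 813 in control, 768 to 859 under iron, 629 to 676 under manganese and 508 to 699 under alloy. Without Dclk1, which fell, the sum was 323 to 334 in control, 319 to 370.0 under iron, 344 to 382 under manganese and 311 to 427 under alloy. Within that list Sh2d6 rose by 0.70 under manganese and by 0.90 under alloy (0.55 without replicates 1, 3 and 4), from 0 of 6 control and 0 of 6 iron arrays above background to 6 and 5 of 6. Of 6 macrophage markers, 4 were above background on no array, with sums of 385 to 422 in control, 386 to 432 under iron, 408 to 449 under manganese and 373 to 437 under alloy. Cd68 rose by 0.28 and 0.30, its alloy value being 0.12 without replicates 1, 3 and 4, where it did not pass. It was above background on 0 of 6 control, 0 of 6 iron, 4 of 6 manganese and 3 of 6 alloy arrays. Sh2d6 and Cd68 passed the filter only through manganese and alloy arrays, and Spint1 only through control and iron arrays. Their calls are therefore not independent of the filter, and no p-value is given for them. The 5 genes named as higher here, and the 3 left out of sums, were singled out after their values were seen, and their part in the levels of Krt16, Krt14 and Avil was not tested.

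For the lists of further genes, the shares to read the counts against are those over all 13392 genes: 26.1% higher and 28.2% lower under manganese, 26.8% and 29.2% under alloy. Other intermediate filament genes passed in both directions, under manganese at counts near those shares. Of 9 tested of 14 on the array, 2 passed as higher and 3 as lower under manganese, and 1 and 4 under alloy (2 and 3 without replicates 1, 3 and 4), with medians of -0.08 and -0.12. None passed under iron (median 0.05). Vim, the main filament protein of fibroblasts, fell by 0.66 under manganese (SE 0.153, adjusted p = 0.00065) and by 0.82 under alloy (adjusted p = 5.65e-05), where the difference was -0.47 without replicates 1, 3 and 4. Synm, the filament linker synemin, fell by 1.21 under manganese and fell by 1.11 under alloy. Its mean intensity was 212 in control, 82.2 under manganese and 86.5 under alloy. Synm was above background on 1 of 6 manganese and 5 of 6 alloy arrays, so background limits the size of the measured fall. Lmnb1, lamin B1 of the nuclear envelope, fell by 0.89 under manganese and fell by 0.78 under alloy, with -0.43 without those replicates. Des, the muscle filament desmin, rose by 0.26 and 0.23, a call that was lost with no normalisation under both powders and with median scaling under alloy.

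Among relatives of Avil, 5 of 7 were tested, 1 passed as higher and 2 as lower under both manganese and alloy (also without replicates 1, 3 and 4), and none under iron (medians -0.05, -0.13 and 0.04). Gsn, the actin-severing protein gelsolin, fell by 0.64 under manganese (SE 0.124, adjusted p = 8.85e-05) and by 0.62 under alloy (adjusted p = 0.00014). Capg, an actin-capping protein, rose by 0.59 and 0.56, and Flii, flightless I, fell by 0.30 and, under alloy, fell by 0.29. Vill, a villin-like gene, lay at -0.05 and -0.13 and did not pass. None came near the size of the Avil difference.

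Genes that anchor keratins differed by small amounts, Plec under alloy apart. Of 10 desmosome and linker genes tested of 19, 4 passed as higher and none as lower under manganese, 3 and 2 under alloy (3 and 1 without replicates 1, 3 and 4), and none under iron (medians 0.13, 0.13 and 0.02). The alloy counts lay near the shares over all genes. Pkp2 and Pkp3, plakophilins of the desmosome plaque, rose by 0.19 and 0.21 under manganese and by 0.36 and 0.25 under alloy. Fam83h, a keratin-associated protein, rose by 0.23 under manganese and differed by 0.13 under alloy (adjusted p = 0.106). Plec, the linker plectin, fell by 0.63 under alloy (adjusted p = 0.0021) and differed by -0.14 under manganese (adjusted p = 0.504). Without alloy replicates 1, 3 and 4 its alloy difference was -0.15 and did not pass (adjusted p = 0.0541), and with only manganese and control in the fit the manganese difference passed (adjusted p = 0.0258). With no normalisation none of the 10 passed as higher under either powder, and with median scaling 2 did under each, so the higher calls depend on the scaling. Of the 14 cornified envelope genes on the array, 3 were tested (Lce3a, Sprr1a and Cnfn) and none passed in any of the 3 comparisons with control.

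Regulators linked to keratin genes, together with ligands of the EGF receptor, held the widest differences of these lists. Of 17 tested of 21, 7 passed as higher and 5 as lower under manganese, 8 and 6 under alloy (7 and 6 without replicates 1, 3 and 4), and none under iron (medians 0.05, 0.08 and -0.03). The 5 lower calls under manganese are close to the share over all genes. Btc and Hbegf, which encode the EGF receptor ligands betacellulin and HB-EGF, rose by 2.94 and 1.76 under manganese and by 2.16 and 1.66 under alloy. Trp63, the transcription factor p63 that maintains basal epidermal keratins, fell by 1.91 under manganese and fell by 1.98 under alloy, from a mean intensity of 325 in control to 76.2 and 70.8, and was above background on no manganese array and 1 alloy array. Stat3, a transcription factor of cytokine signalling, fell by 1.70 and, under alloy, fell by 1.46. These 4 directions held with median scaling, with no normalisation and without alloy replicates 1, 3 and 4.

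Likeness over the 24 arrays was sought among tested genes outside the set that had a current annotated symbol, each taken from its own control mean. Closest to Krt16 among them were Atf3 (root mean square difference 0.210 on the log2 scale), Ppp1r15a (0.312), Gsta1 (0.322), Slc7a11 (0.334) and Ccl5 (0.350). Atf3 encodes a stress-induced transcription factor, Ppp1r15a a phosphatase subunit, Gsta1 a glutathione transferase, Slc7a11 a cystine transporter and Ccl5 a chemokine. Atf3 stood 2.89 above control under manganese and 3.50 under alloy, against 3.06 and 3.56 for Krt16. Closest to Avil were Dusp4 (0.300), a MAP kinase phosphatase, then Ccl5 (0.330), Rsad2 (0.331), Ifi207 (0.391) and Cxcl10 (0.465). Dusp4 stood 3.66 and 3.87 above control, against 3.81 and 4.08 for Avil. Krt16 and Avil differed from each other by 0.509, more than either did from those 5 genes. All these genes share a wide step between the control and iron arrays and the manganese and alloy arrays, which enters every distance.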

How the data were processed

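Total RNA was labelled as biotin cRNA and hybridised to 24 Illumina mouse bead arrays, per the labels' protocols. The authors deposited non-normalized intensity tables per probe (45281 probes) and per gene, linear per the file headers. The authors also deposited normalized tables, taken as log2 values; lumi and RMA appear in the submitters' processing notes without a version. No detection p-values are in the tables used.

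Intensities were corrected by normexp (offset 50), quantile normalised and put on the log2 scale. A probe was above background where its log2 intensity passed a limit set per array from the mode and the scatter on its lower side, which a normal background would exceed for 1% of probes. Probes past the limit on at least 6 of 24 arrays were kept (20192), with the brightest probe per gene (13392 genes). At-least folds, against the lowest signal above background, were all below 1 and are not printed. All arrays entered 1 limma fit (two-sided lmFit and eBayes), and p-values of each of 6 comparisons were adjusted by Benjamini-Hochberg over all genes, with a threshold of 0.05. The code was tested on simulated data. Tools were Matplotlib 3.10.9, SciPy 1.17.1, pandas 2.3.3, NumPy 2.4.6, Python 3.11.15, limma 3.58.1 and R 4.3.3.

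The genes, the 6 gene lists and the marker lists were chosen with earlier results of these data known. One gene of the sensory neuron list is not reported here. Named list genes are the up to 4 with the largest mean difference over manganese and alloy, and the 5 genes most like Krt16 or Avil are those with the smallest root mean square difference. The latter were sought only among kept genes with a current symbol from the annotation. The set itself and clone, Rik, Gm, LOC or locus names were left out. Symbols came from the platform annotation and RefSeq (GRCm38.p6); 34885 probes had 1 annotated gene, 18 had several and 10378 kept the array's own symbol. Alternatives covered background correction, scaling, filter, probe choice, table, samples in the fit and each array left out. The number of arrays limits the precision, and the labels do not say how many separate cultures lie behind them.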

Additional observations from a re-analysis of the deposited data

Results flagged for a closer look

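A single array stood apart from the other 5 of its group in 2 of 36 sets of 6 arrays (9 genes in 4 groups, normalised log2 level, by Dixon's ratio at its 95% critical value), and chance gives about 1 such set in 20. Krt7 in iron replicate 4 was at 6.544, while the other 5 iron arrays lay between 6.77 and 6.91 (ratio 0.629). Krt20 in manganese replicate 6 was at 6.51, while the other 5 manganese arrays lay between 6.25 and 6.35 (ratio 0.63). That manganese array was the 1 on which Krt20 passed the background limit.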

How the results depend on the processing

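Every alternative kept the direction of Krt14, Krt16 and Avil under manganese and alloy against control and against iron. Against control, Krt16 ranged from 0.89 to 3.72 under manganese and from 1.27 to 4.22 under alloy, Avil from 1.36 to 4.503 and from 1.64 to 4.78, and Krt14 from 0.18 to 1.33 and from 0.26 to 1.68, lowest in the authors' normalized probe table and highest with an offset of 16. Between alloy and manganese, Krt16 turned to -0.26 and Avil to -0.58 without alloy replicates 1, 3 and 4, the alloy arrays where both were highest. Leaving out 1 array gave Avil -0.00467 (without alloy replicate 3) to 0.57 and Krt16 0.22 to 0.78. The Krt14 difference between alloy and manganese missed the threshold in 7 of 13 settings. Krt7 in manganese against iron passed without iron replicate 4 (-0.19, adjusted p = 0.0377). Krt8 changed sign around 0. In manganese against control it was -0.0105 with no normalisation. In alloy against control it was -0.0514 with median scaling and -0.0968 with no normalisation (-0.00626 to 0.0305 with 1 array left out). In manganese against iron, with no call, it was 0.00308 in the authors' normalized gene table (-0.0401 to 0.0248 with 1 array left out).

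Genes passing in iron against control numbered 32, and 94 and 61 in the authors' normalized gene and probe tables, 3 with median scaling, 2 with no normalisation and 314 with only the 2 groups in the fit; leaving out 1 array gave 10 to 68. Without control replicate 2, 3 or 4 it was 10, 20 or 11, dropping iron replicate 3, 5 or 6 left 16, 18 or 15, and dropping alloy replicate 3 gave 68. In alloy against manganese 2010 genes passed, and 1066 with median scaling, 848 with no normalisation and 557 with only the 2 groups; leaving out 1 array gave 1479 to 2925. Scaling also moved the split: in manganese against control 3499 higher and 3776 lower became 2409 and 3685 with median scaling and 2004 and 3466 with none, in alloy against control 3594 and 3908 became 1993 and 4703, and 1508 and 5052, and in alloy against manganese 837 and 1173 became 147 and 919, and 57 and 791. With no normalisation the median of all genes in alloy against control was -0.13. The cause of these shifts was not tested. With the replicate number as a block 54 genes passed in iron against control, and it changed no call of the tested genes of the set. Same-numbered control and iron arrays correlated at -0.00258 to 0.346, over 0.1 in 4 of 6 pairs, and 3 of 6 arrays correlated best with their own number. For manganese and control the range was -0.163 to 0.183, and 4 of 6 arrays did so. In each other comparison it was 1 or 2 of 6. The main fit did not pair arrays by number, and an effect shared by number was not tested further. Signals of Krt17, Krt18, Krt19 and Krt20 near background limit what can be said of them.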
